A study of Xenopus tropicalis with 9 samples.

Results

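The transcripts described here encode the cytoplasmic actins and the small proteins that bind actin monomers or sever filaments. They are actb and actg1 (beta and gamma cytoplasmic actin), tmsb4x (thymosin beta 4), cfl1 and cfl2 (cofilins) and pfn2 (a profilin). They were found by gene symbol in the deposited table, in which 6 of the 7 symbols of the rule, out of 15288 genes, were present. The remaining symbol, pfn1, named no gene of the table and was not analysed here. The set was chosen by RPKM, as one of very abundant RNAs of these libraries, so the levels are a description and no test is attached to them. Not every member was very abundant, since cfl2 reached at most 26.7 RPKM, with a rank of 1811, at PA stage 30.

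RNA came from the frog Xenopus tropicalis, from stage VI oocytes freed of follicles with collagenase and from whole outbred embryos made by in vitro fertilization. The 6 polyA libraries (PA), from RNA put through an additional round of oligo(dT) selection, covered the oocyte, the early blastula (Nieuwkoop-Faber stage 6), the late blastula (stage 9), the gastrula (stage 12), the neurula (stage 16) and the early larva (stage 30). The 3 ribosomal RNA depleted libraries (RiboZero, RZ) covered the first 3 of these. The groups differed in stage and library type, and no genotype or test treatment is named for any of them. Parent frogs had been primed with human chorionic gonadotropin, and embryos had been dejellied in cysteine. Each library was made from pooled RNA of 3 biological replicates, so there was 1 library per condition, no replicate spread and no p-value. In whole oocytes and embryos, fewer cells that make an RNA and less RNA per cell cannot be told apart.

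Actin monomers polymerize into filaments that form the cell cortex, the cleavage furrow and the protrusions of moving cells. Thymosin beta 4 holds monomers in reserve, profilin reloads them with ATP and delivers them to growing filament ends, and cofilin severs old filaments and returns monomers to the pool. In an early frog embryo, cleavage and gastrulation both depend on this cycle, and until the mid-blastula transition it runs on stored maternal products. An oocyte RNA can be stored with a short or a long polyA tail, and oligo(dT) capture favours the long one. The ratio of PA to RZ RPKM is therefore read as relative polyadenylation. RPKM is reads per kilobase of exon, scaled to the mapped reads of the library, a level that can be compared between genes.

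The libraries held an inferred 13422643 (PA stage 9) to 44490754 (PA stage 6) mapped reads and were not on an equal scale. These depths were worked out from the RPKM values. The highest lies above what the read totals and aligned share in the paper would give, so they are uncertain. Summed RPKM was 128617 in PA stage 6, against 196370 to 346421 in the other PA libraries, and the median log2 change over all 9274 genes compared between PA oocyte and PA stage 6 was -1.44. For RZ this median was -0.42 from oocyte to stage 6 and 0.50 from stage 6 to stage 9. Changes are given as they stand, and for the main steps also relative to these medians. The labelled stages were checked against markers. All 6 oocyte markers (such as zp2 and mos) reached 1 RPKM in both oocyte libraries, but also in all RZ libraries and in PA up to stage 12, so they do not tell an oocyte from an early embryo. All 4 gastrula mesendoderm markers did so in PA stage 12, where their sum was highest. PA stage 9 carried muscle transcripts at higher levels than its RZ counterpart. All 7 skeletal muscle markers were at 1.14 to 13.3 RPKM in PA stage 9, which was 0.354 to 1.25% of their stage 30 levels. None of the 7 reached 1 RPKM in RZ stage 9, where 3 were at 0 and the highest was at 0.670 RPKM. The part of this signal in the PA stage 9 levels given below was not tested.

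Over oocyte and stages 6 and 9, RZ levels of actb, actg1, cfl1 and pfn2 as deposited differed less than their PA levels. The unscaled margin was wide in actb and cfl1 and small in pfn2, and tmsb4x differed widely in both. From its lowest to its highest library, the RZ level differed 1.39-fold in actb, 1.34-fold in actg1, 1.48-fold in cfl1 and 1.05-fold in pfn2, but 3.94-fold in tmsb4x. For comparison, 485 genes reached 40 RPKM in all RZ libraries, a limit set after the values were seen, and the median of this range over them was 1.51-fold. Over the same 3 stages the PA range was 11.2-fold in actb, 4.12-fold in actg1, 39.2-fold in tmsb4x, 8.84-fold in cfl1 and 1.98-fold in pfn2, with a median of 3.70-fold over the 485 genes. Without PA stage 9, which leaves oocyte and stage 6, it was 10.1-fold in actb, 2.43-fold in actg1, 39.2-fold in tmsb4x, 3.67-fold in cfl1 and 1.15-fold in pfn2.

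**Figure D1:**
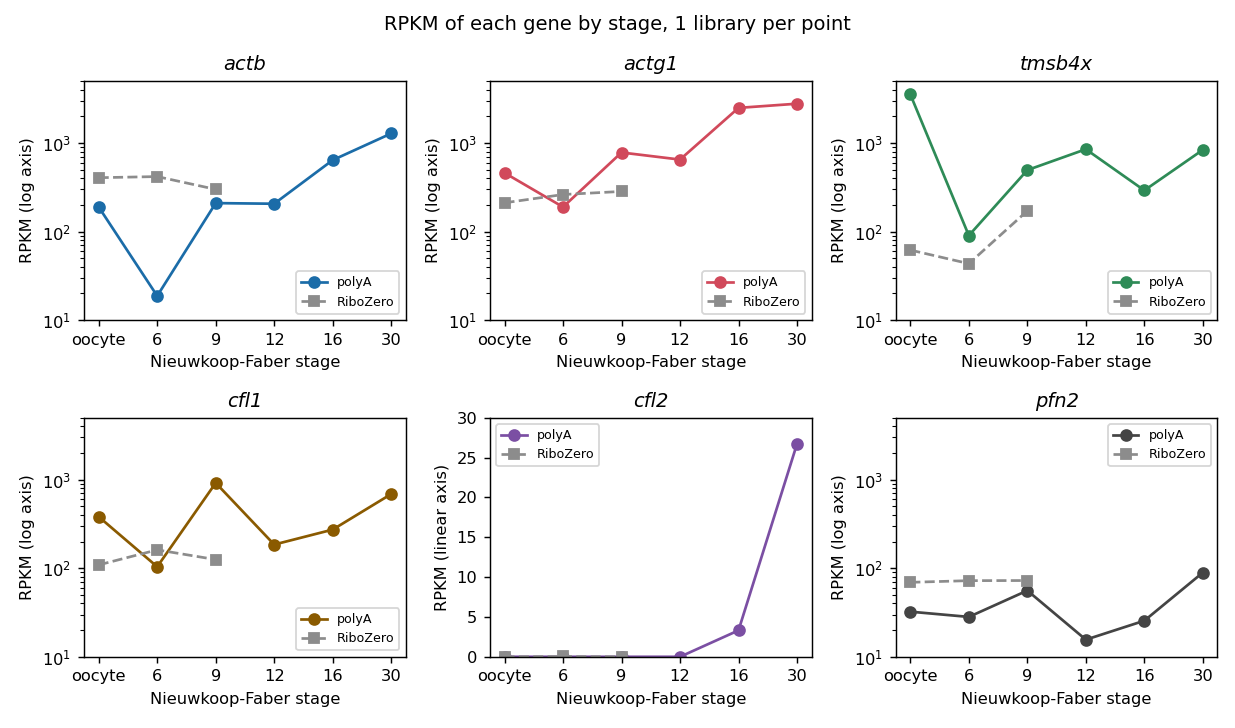
RPKM of each gene (y axis, log scale except for cfl2) by Nieuwkoop-Faber stage (x axis); circles are polyA libraries, squares RiboZero libraries, 1 library per point. The polyA level of actb dips to 18.7 RPKM at stage 6 while its RiboZero level stays between 299 and 417 RPKM, and tmsb4x starts at 3529 RPKM in polyA oocyte.

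The actb model lay on scaffold 9 from 39980707 to 39985139 on the minus strand, and that of actg1 on scaffold 7 from 112958763 to 112962900 on the plus strand of the JGI assembly. Of the genes next to actb (5 on each side), all 9 with a RefSeq name lay within 2 Mb of RefSeq actb. For actg1 this was so for 5 of 7. No other gene model of the table overlapped either of them. Vertebrate actins are near-identical in coding sequence and reads with several positions had been left out, so the split of reads between actb, actg1 and the muscle actins is uncertain.

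Across oocyte and stages 6, 9, 12, 16 and 30 in turn, actb was at 189, 18.7, 209, 206, 640.1 and 1279 RPKM in PA. Its RZ levels in oocyte and at stages 6 and 9 were 405, 417 and 299 RPKM. The stage 6 PA library was the low one, and every RZ value exceeded the PA value of its stage, also with libraries divided by summed RPKM. In RZ libraries actb was the eighth most abundant gene of the oocyte, the fourth of stage 6 and the tenth of stage 9. In PA libraries of these stages it ranked 274, 1603 and 147. Between oocyte and stage 6 actb was 10.1-fold lower in PA, a log2 change of -3.33 and -1.90 relative to the median of all genes, and 1.03-fold higher in RZ, a log2 change of 0.04 and 0.47 relative to the RZ median. Leaving the stage 6 libraries out, its log2 change from oocyte to stage 9 was 0.15 in PA and -0.44 in RZ.

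PA levels of actg1, in the same order, were 459, 189, 780.0, 649, 2488 and 2773 RPKM. Its RZ levels were 211, 262 and 283 RPKM. Only in the stage 6 pair did the RZ value exceed the PA value. This order was not stable, since the log2 ratio of -0.47 became 0.17 after centring on the median of maternal genes. By stage 16 actg1 was the third most abundant gene in PA, and at stage 30 it ranked 6. Its log2 change from oocyte to stage 6 was -1.28 in PA, which was 0.16 above the median of all genes and became 0.04 when each library was divided by its summed RPKM. Its RZ log2 change was 0.31, or 0.74 relative to the RZ median. Thus the lower PA level of actg1 at stage 6 was no larger than the shift of the whole library.

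The 2 cytoplasmic actins were thus present in opposite proportions in the 2 kinds of library. Summed actb and actg1 came to 648 RPKM in PA oocyte and 616 RPKM in RZ oocyte, or 0.202% and 0.331% of all RPKM of these libraries. Of this sum, actb made up 29.2% in PA oocyte and 65.8% in RZ oocyte. At stage 6 its share was 9.01% in PA and 61.5% in RZ, and at stage 9 it was 21.2% and 51.3%. In the PA libraries of stages 12, 16 and 30 it was 24.1%, 20.5% and 31.6%. A share within a library is free of the scale between libraries. In all 6 PA libraries actg1 was the more abundant cytoplasmic actin, and in all 3 RZ libraries actb was.

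**Figure D2:**
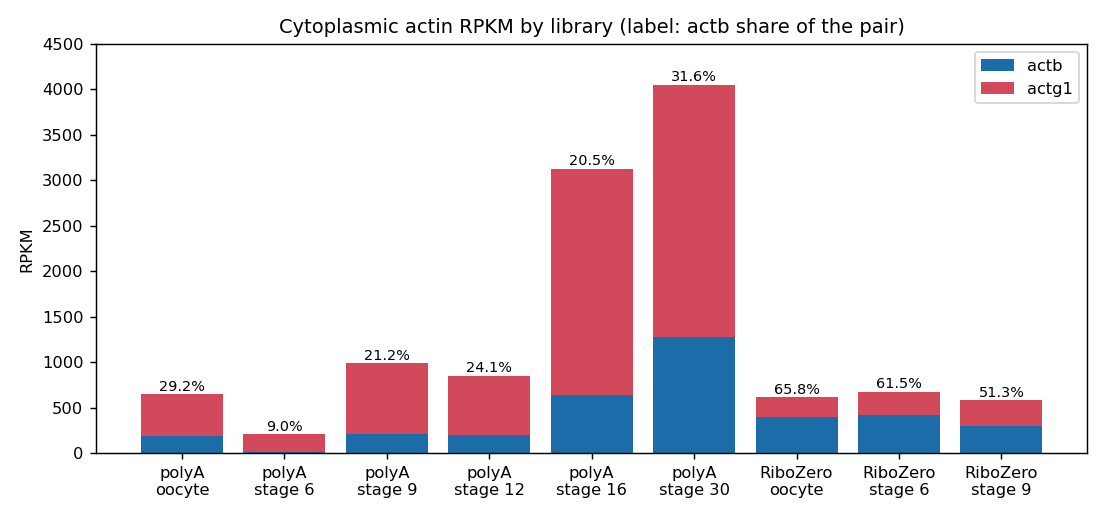
Stacked bars of actb and actg1 RPKM (y axis, from 0) in each of the 9 libraries (x axis), with the actb share of the pair above each bar. The share lies between 9.01% and 31.6% in the polyA libraries and between 51.3% and 65.8% in the RiboZero libraries, and the summed level is highest in polyA stage 30, at 4052 RPKM.

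After gastrulation both actins reached a new level. From stage 12 to stage 16 actb was 3.11-fold higher and actg1 3.83-fold higher, against a background of 33.8% of 10451 genes at least 2-fold higher and 7.72% at least 2-fold lower. Their sum at stages 12, 16 and 30 was 855, 3128 and 4052 RPKM, or 0.435%, 1.29% and 1.17% of all RPKM of these libraries. Divided by summed RPKM, actg1 was highest at stage 16 in place of stage 30. The 3 muscle actins in the table (acta1, acta2 and actc1, the striated and smooth muscle forms) summed to 29.3, 693 and 1197 RPKM. Cytoplasmic actin therefore made up 96.7%, 81.9% and 77.2% of all actin RPKM at these stages. It was 98.6% or more in each earlier library of either kind.

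Thymosin beta 4 RNA was the most abundant transcript of the PA oocyte library. The gene tmsb4x lay on scaffold 2 from 47074419 to 47074775 on the minus strand, a model of 357 bases against a RefSeq gene length of 1886 bases, and its RPKM covers only this part of the gene. From oocyte through stages 6, 9, 12, 16 and 30, the PA level was 3529, 90.0, 494, 849, 291 and 836 RPKM. The corresponding RZ levels, to stage 9, were 61.8, 43.4 and 171 RPKM. The PA oocyte value stood far above the next highest library, stage 12, and the RZ oocyte value gave no such picture, with a rank of 432. At stage 6 the PA level was 39.2-fold lower than in oocyte, a log2 change of -5.29 and -3.86 relative to the median, and 0.679% of genes had a lower value. At stage 9 the PA level was still 7.15-fold lower than in oocyte, while the RZ level was 2.77-fold higher, with 97.8% of 9336 genes below it.

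From stage 12 to stage 16, when both actins were higher, tmsb4x was 2.92-fold lower, and only 3.52% of genes had a lower value. From stage 16 to stage 30 it was 2.87-fold higher, and actb was higher as well, at 640.1 and 1279 RPKM. Over this step actg1 was 1.11-fold higher as deposited, a log2 change of 0.16 against a median of 0.18. It became -0.36 with libraries divided by summed RPKM. Relative to the summed cytoplasmic actins, tmsb4x RPKM was 5.44 in PA oocyte, and 0.433, 0.499, 0.994, 0.0931 and 0.206 at PA stages 6, 9, 12, 16 and 30. The RZ values were 0.100, 0.0639 and 0.294.

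Markers of other cells that an oocyte preparation could hold were measured in the same libraries. The 5 follicle cell markers (foxl2, amh, cyp19a1, hsd3b1 and fshr) summed to 1.22 RPKM in PA oocyte and 0.140 in RZ oocyte, none at 1 RPKM. The 3 erythroid markers summed to 1.56 and 0.653 RPKM. In PA oocyte the globins hbg1 and hba1 were at 1.04 and 0.510 RPKM. The third marker, gata1, was at 0.00849 RPKM there and listed at 0 in RZ oocyte. The gene lcp1, an actin bundling gene of leukocytes, was at 0.0254 RPKM in PA oocyte and listed at 0 in RZ oocyte. At PA stage 6 tmsb4x was lower, and 62.7% of all genes were at least 2-fold lower. There the follicle and erythroid sums were 0.0209 and 0.0294 RPKM, from amh and hbg1 alone. Both sums were under the floor of 3 reads on 1 kb, 0.0674 RPKM. In RZ stage 6 they were 0.0293 and 0.331 RPKM, and at PA stage 30 they were 6.05 and 8.59 RPKM. The part of such cells in the tmsb4x level was not tested. Between the oocyte libraries, 7 maternal genes had a higher PA/RZ ratio than tmsb4x. They included krt5.7 (a keratin) at 1.33 against 0.00716 RPKM and gsta1 (a glutathione transferase) at 13.4 against 0.0742 RPKM, and none of the 7 exceeded 13.4 RPKM in PA. All 7 were at 0.0854 RPKM or less in RZ oocyte, under its floor of 0.130 RPKM, so their ratios are imprecise. The RZ oocyte level of tmsb4x was 61.8 RPKM.

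Cofilin 1 RNA was the tenth most abundant transcript of PA stage 9. The gene cfl1 lay on scaffold 4 from 61060122 to 61070365 on the plus strand. Its model shared 602 bases with mus81 (a nuclease gene on the minus strand, 61003411 to 61060723), and since no source used here says that reads were counted by strand, reads there cannot be told apart. The level of mus81 was 1.42 to 19.5 RPKM in all libraries. PA libraries from oocyte to stage 30 held cfl1 at 381, 104, 918, 185, 273 and 688 RPKM. RZ libraries from oocyte to stage 9 held it at 109, 161 and 125 RPKM. PA and RZ levels went opposite ways at both early steps. At the first step the PA level was 3.67-fold lower and the RZ level 1.48-fold higher, and from stage 6 to stage 9 the PA level was 8.84-fold higher and the RZ level 1.29-fold lower. Relative to the medians of all genes, the log2 changes were -0.44 in PA and 0.99 in RZ at the first step, and 1.62 and -0.86 at the second. The PA level was then 4.97-fold lower at stage 12. Without PA stage 9 the highest library was stage 30, as it was with each library divided by its median.

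The muscle-type cofilin of mammals is the product of CFL2. Its frog counterpart cfl2 (scaffold 8, 86084186 to 86096354, plus strand) was listed at 0 in PA oocyte and PA stages 6, 9 and 12, and in RZ oocyte and stage 9. RZ stage 6 had 0.0363 RPKM, less than the 0.0447 RPKM that 1 read on 1 kb was worth at its inferred depth. The PA level was 3.31 RPKM at stage 16 and 26.7 at stage 30. At the inferred depths a floor of 3 reads on 1 kb came to between 0.0674 and 0.224 RPKM. Even at stage 30 cfl2 was 3.74% of the summed cofilin RPKM, and cfl1 supplied the rest. The sum of the skeletal muscle markers was also highest at stages 16 and 30. Their sum was 1219 RPKM at stage 16 and 5249 at stage 30 with all 7 at or above 1 RPKM, against 0.815 to 47.2 RPKM in the other 7 libraries. These stages were also the highest for lcp1, an actin bundling gene of leukocytes, at 2.63 and 16.4 RPKM. The part of muscle in the level of cfl2 was not tested. In PA stage 9, where the muscle markers summed to 39.7 RPKM, cfl2 was listed at 0. The markers were there at 0.354 to 1.25% of their stage 30 levels. A like share of the stage 30 level of cfl2 would lie near the floor of 0.224 RPKM, so this 0 is not informative.

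With RPKM as deposited, profilin 2 RNA was the steadiest of the set in RZ. The gene pfn2 lay on scaffold 5 from 22589967 to 22607320 on the minus strand, with no overlapping model. Its RZ levels were 69.3, 72.4 and 72.6 RPKM. Relative to the RZ medians of all genes, its log2 change was 0.49 from oocyte to stage 6 and -0.49 from stage 6 to stage 9. In the unscaled range over RZ libraries, 0.825% of the 485 abundant genes lay below pfn2. PA levels from oocyte to stage 30 were 32.3, 28.2, 55.9, 15.6, 25.5 and 89.3 RPKM. The PA value was below the RZ value at all 3 early stages, as it was for actb. Its PA log2 change at stage 6 against oocyte was -0.20, 1.24 above the median of all genes.

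The counts of genes past 2-fold are read against the whole table. From PA oocyte to stage 6, 4 of 5 genes were at least 2-fold lower, with 62.7% of all genes so, and none was higher (background 5.83%). The exception was pfn2. From PA stage 6 to stage 9, 4 of 5 were at least 2-fold higher, with 68.7% of all genes so, and none was lower (background 2.4%). Both counts are close to their backgrounds. Relative to the medians of all genes, the log2 changes at these steps were -1.90 and 1.96 for actb, 0.16 and 0.52 for actg1, -3.86 and 0.93 for tmsb4x, -0.44 and 1.62 for cfl1, and 1.24 and -0.54 for pfn2. With PA stage 12 in place of PA stage 9, a comparison added after the values were seen, the log2 changes from stage 6 were 3.46 for actb, 1.78 for actg1, 3.24 for tmsb4x, 0.83 for cfl1 and -0.85 for pfn2, against a median of 0.08 over 9105 genes. From PA stage 9 to stage 12, cfl1 and pfn2 were at least 2-fold lower, with 59.2% of all genes so, while actb and actg1 had log2 changes of -0.02 and -0.27 against a median of -1.39. Both changed sign with scaling, to 0.57 and 0.33 with libraries divided by summed RPKM and to 1.35 and 1.10 with libraries divided by their medians. By median, 3 of the 5 were at least 2-fold higher and none was at least 2-fold lower. There cfl1 and pfn2 were still lower, at -0.94 and -0.47. From PA stage 16 to stage 30, 4 of 6 were at least 2-fold higher (background 25.3%), namely tmsb4x, cfl1, cfl2 and pfn2, and actb, at 640.1 and 1279 RPKM, stood just below the threshold. With PA oocyte set against stage 9, past the stage 6 library, cfl1 alone was at least 2-fold higher (background 26.1%) and tmsb4x alone lower (background 19.7%). From PA oocyte to stage 30, actb (6.77-fold), actg1 (6.04-fold) and pfn2 (2.76-fold) were higher, with 27.5% of all genes so, and tmsb4x was 4.22-fold lower, with 37.2% of all genes so. In RZ, none of the 5 passed 2-fold from oocyte to stage 6, where 1.7% of genes were higher and 20.2% lower. From RZ stage 6 to stage 9 tmsb4x alone did, at 3.94-fold higher, where 31.9% of genes were higher and 7.33% lower. Between RZ oocyte and stage 9 it was again alone, 2.77-fold higher, where 7.81% were higher and 7.25% lower.

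**Figure D3:**
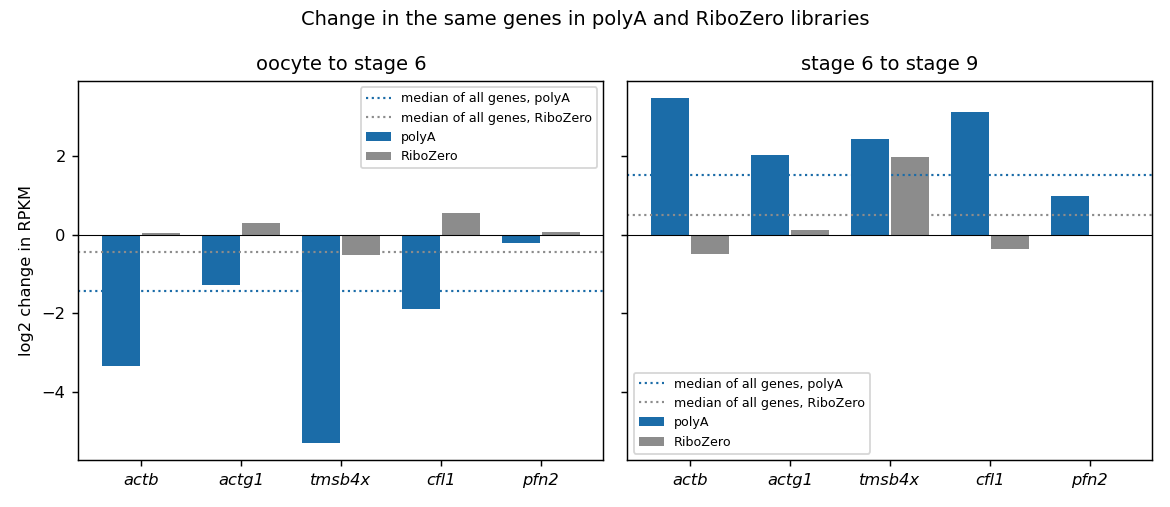
Log2 change in RPKM (y axis) of 5 genes from oocyte to stage 6 and from stage 6 to stage 9, in polyA (blue) and RiboZero (grey) libraries; dotted lines are the medians over all genes compared. For actb and cfl1 the polyA bars reach -3.33 and -1.88 and then 3.48 and 3.14, and the RiboZero bars lie between -0.48 and 0.56.

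The PA/RZ ratio placed the 5 maternal genes at different points of the distribution, with cfl1 and actg1 near the median at stage 6. In oocyte the log2 ratio was -1.10 for actb and for pfn2, 1.12 for actg1, 1.81 for cfl1 and 5.84 for tmsb4x, with a median of 0.29 over 9503 maternal genes (at least 1 RPKM in an oocyte library). Thus 3 were at least 2-fold higher in PA (background 29.8%) and 2 at least 2-fold lower (background 17.6%). The number higher was 2 by summed RPKM and after centring, where actg1 was at 0.34 and 0.83. At stage 6 the ratio was -4.48 for actb, and 0.339% of 8840 maternal genes had a lower one. The others were -1.36 for pfn2, -0.63 for cfl1, -0.47 for actg1 and 1.05 for tmsb4x, with a median of -0.63. The background at this stage was 9.8% of genes at least 2-fold higher in PA and 38.3% at least 2-fold lower. At stage 9 the ratio was -0.52 for actb, -0.38 for pfn2, 1.46 for actg1, 1.53 for tmsb4x and 2.87 for cfl1, with a median of 0.22. Here 98.3% of maternal genes lay below cfl1, and 3 genes were at least 2-fold higher in PA (background 23%) and none lower (background 7.59%).

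Seen as a change in ratio, actb, cfl1 and, to a smaller extent, actg1 dipped at stage 6 and returned, while tmsb4x did not return. Over the 2 steps the log2 ratio of actb changed by -3.38 and then by 3.96, and that of cfl1 by -2.44 and 3.51. For actg1 the changes were -1.59 and 1.93, and for pfn2 -0.26 and 0.98. The median maternal gene changed by -0.89 and 0.91. The return rests on PA stage 9, since no later stage had both kinds of library. For tmsb4x the changes were -4.78 and 0.48, so that from oocyte to stage 9 its ratio was lower by a log2 difference of -4.31, and 0.222% of maternal genes had a lower value. Short gene models had somewhat higher ratios in general. Over the 89 maternal genes with a span under 1000 bases the median in oocyte was 0.42, and none of them exceeded tmsb4x. At stages 6 and 9 its ratio was unremarkable among these short genes, with 72.1% and 74.4% of them below it.

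**Figure D4:**
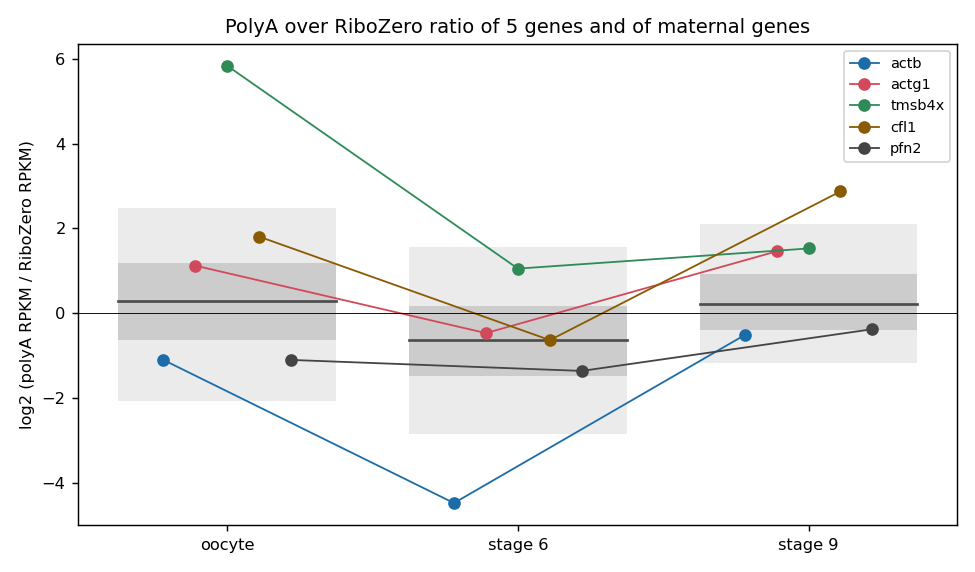
Log2 ratio of polyA to RiboZero RPKM (y axis) of 5 genes at oocyte, stage 6 and stage 9 (coloured points); grey boxes span the 5th to 95th (light) and 25th to 75th (dark) percentiles of maternal genes and the line is their median. At stage 6 actb, at -4.48, lies below the light box, as tmsb4x in oocyte, at 5.84, and cfl1 at stage 9, at 2.87, lie above it.

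The genes with the most similar profiles were named by Pearson's r of log2(RPKM + 1) over the 9 libraries, among the 8142 genes that reached 10 RPKM anywhere. The libraries share a scale and the values describe them only. For actb these were gtpbp4 (r = 0.985), jagn1 (0.983) and eif3b (0.970), and for actg1 tpt1 (0.976), ccdc63 (0.976) and actc1 (0.976). The last is a muscle actin, at 1.91 RPKM in PA oocyte and 1065 at stage 30. The profile of tmsb4x was closest to eif1ad (0.982), polr2j (0.972) and ubl5 (0.969), that of cfl1 to aimp1 (0.972), aurkaip1 (0.956) and coro7 (0.940), and that of pfn2 to gca (0.957), scfd1 (0.919) and pdha1 (0.919). For cfl2 they were lcp1, neurod1 and ednra, with r of at least 0.9997 that rests on 2 libraries, since each reached 1 RPKM in PA stages 16 and 30 only. None of the 6 genes had another of them among its closest. Between actb and actg1 r was 0.620.

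Other genes of the actin cycle were taken from lists of 78 names, of which 73 were in the table. The names included 4 muscle actins, which count among the regulators in all totals and medians here and below. From PA oocyte to stage 6, 34 of the 56 compared were at least 2-fold lower (background 62.7%) and 1 higher (background 5.83%), and their median log2 change of -1.28 lay near that of all genes (-1.44). From oocyte to stage 30, 22 of 63 were at least 2-fold higher (background 27.5%) and 9 at least 2-fold lower (background 37.2%), with a median of 0.34 against -0.41 over all genes. The 22 included 2 muscle actins. They also included fmnl2, evl, dstn, tmod1, ezr, lcp1 and flnc, all under 1 RPKM in PA oocyte. Such genes, in the lists as in the background, were compared only because of their stage 30 level and could not count as lower. The PA/RZ ratio of the regulators at oocyte and stages 6 and 9 had medians of 0.39, -0.34 and 0.27.

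The counts of each list from oocyte to stage 30 are to be read beside the same background, 27.5% of all genes higher and 37.2% lower, and differences between lists were not tested. Of the 19 genes of the Arp2/3 complex and its activators, which nucleate branched filaments, 3 were at least 2-fold higher and 2 lower, with arpc2 at 31.5 and 123 RPKM and actr3, the most abundant of them, at 43.5 and 148 RPKM. The largest differences downward were abi2 (log2 change -1.46) and wasf2 (-1.07). Among 9 formins and elongation factors, 3 were higher and 2 lower. The formin fmn2, known for its role in oocyte meiosis in mice, was at 20.9 RPKM in PA oocyte and 1.14 at stage 30, and diaph3 at 5.69 and 1.38. The highest PA level of the list was that of vasp, at 33.2 RPKM at stage 30, and the largest differences upward were fmnl2 (0.162 to 2.32 RPKM) and evl (0.313 to 3.75). Of 12 genes that cap, sever or recycle actin, 6 were higher and 1 lower. The lower one was gsn (gelsolin), at 53.4 and 9.59 RPKM, followed by capza2 (log2 change -0.63), and the highest PA level was that of cap1, at 80.5 RPKM at stage 30. The largest differences upward came from low levels, in dstn (0.0414 to 2.68 RPKM) and tmod1 (0.0812 to 1.62).

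Cofilin is switched off by LIM and TES kinases and on by slingshot phosphatases. Of 6 such genes none was at least 2-fold higher at stage 30 (background 27.5%) and 4 were lower (background 37.2%), with a median log2 change of -1.70. The phosphatase ssh1 had PA levels of 5.95, 17.5 and 0.340 RPKM in oocyte, stage 9 and stage 30, and the kinase limk1 had 3.80, 5.45 and 0.415 RPKM. The most abundant of them in PA was tesk2, at 22.6 RPKM at stage 9, and without PA stage 9 it was limk2, at 10.04 RPKM at stage 16. Over this interval cfl1 itself was 1.80-fold higher. In oocyte, 4 of the 6 had a PA/RZ ratio at least 2-fold below 1 (background 17.6%), with a median log2 ratio of -1.28, whereas that of cfl1 was 1.81. These are counts and medians without a test.

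Of 13 bundling and membrane linking genes 7 were at least 2-fold higher at stage 30 (background 27.5%) and none lower (background 37.2%). Of the 7, ezr, lcp1 and flnc (0.159 to 3.27 RPKM) passed the 1 RPKM filter only at stage 30 and could not count as lower. The membrane linker ezr went from 0.00347 to 9.82 RPKM and the leukocyte bundler lcp1 from 0.0254 to 16.4, both from levels under the floor, and flna had the lowest log2 change, -0.54. The most abundant gene of this list was fscn1 (fascin), at 73.8 RPKM in PA oocyte and 128 at stage 30. The transcription factor srf, which drives actin genes, had PA levels of 5.72, 8.70, 3.48, 27.9, 36.7 and 16.2 RPKM from oocyte to stage 30. Its cofactor mkl1 was highest at PA stage 9, with 51.4 RPKM against at most 16.0 RPKM in the other libraries, and its log2 change from oocyte to stage 30 was -0.09. Of the muscle actins, actc1 had a log2 change of 9.12 and acta2 of 6.62.

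**Figure D5:**
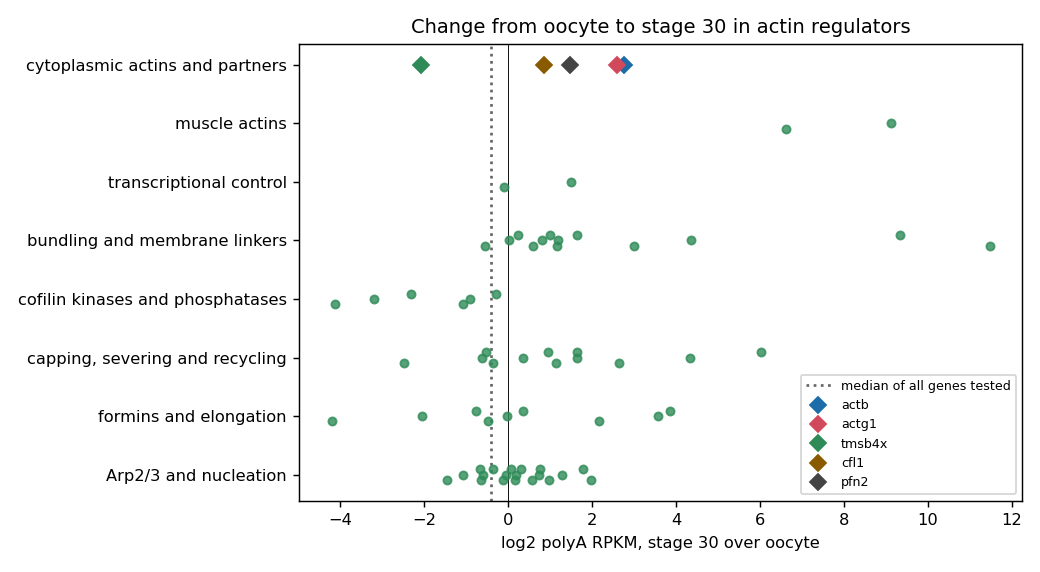
Log2 ratio of polyA RPKM at stage 30 to oocyte (x axis) for the actin regulators and muscle actins of each list (circles) and for 5 of the genes described (diamonds, top row), among genes with at least 1 RPKM in either library. The median of all genes compared is -0.41 (dotted line); the 6 cofilin kinases and phosphatases lie between -4.13 and -0.30, below the 2.76 and 2.59 of actb and actg1.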

How the data were processed

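The authors aligned reads with BWA (version 0.6.1 in the submitters' notes) to the JGI genome assembly, left out reads with several positions, and deposited RPKM values per gene, the mean over the non-redundant exons of all its isoforms, from Xenbase gene models. The header names the 9 libraries within 1 field, in whose order the columns were read. RPKM was used as deposited, with no pseudocount and no further scaling. Symbols were matched to RefSeq (UCB_Xtro_10.0).

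The most frequent value of RPKM times gene span in a library was taken as that of 1 read in single-exon genes. It was shared by 35 to 61 genes per library. Mapped reads were inferred from it, and it showed that starts count from 0. Starts are printed counted from 1. How many reads lie behind multi-exon values is unknown, so no counting interval is given. A floor of 3 reads was used.

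Log2 ratios were taken for genes above 0 in both libraries with at least 1 RPKM in either. A threshold of 2-fold was set beside the share of all genes past it. Regulators named were the most abundant in PA and up to 2 with the largest change in each direction from oocyte to stage 30 per list; srf, mkl1 and mus81 and the stage values of ssh1 and limk1 were added after the values were seen. Genes with similar profiles were the 3 with the highest r. One further list of regulators is not reported here. Members and lists were chosen with earlier results of these data known. Alternatives were a pseudocount of 1, scaling by summed or by median RPKM, centring of ratios, other filters and other thresholds. Procedures were tested on simulated data. Python 3.11.15, numpy 2.4.6, pandas 2.3.3 and matplotlib 3.10.9 were used.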

Additional observations from a re-analysis of the deposited data

Results flagged for a closer look

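Some changes had opposite signs in PA and RZ libraries of the same stages, with the PA change at least 2-fold. From oocyte to stage 6 the log2 changes in PA and RZ were -3.33 and 0.04 for actb, -1.28 and 0.31 for actg1, and -1.88 and 0.56 for cfl1. From stage 6 to stage 9 they were 3.48 and -0.48 for actb and 3.14 and -0.36 for cfl1. From oocyte to stage 9 they were -2.84 and 1.47 for tmsb4x. Relative to the medians of all genes, the actg1 values were 0.16 and 0.74, of the same sign. With 1 library per condition these differences were not tested.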

How the results depend on the processing

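Of 374 recomputed values 293 moved by less than 1.5 times (5 percentage points for shares and percentiles), 80 moved by more and 1 value of at least 2-fold changed sign: actg1 from PA oocyte to stage 6, at 0.036 with libraries divided by summed RPKM. A further 16 log2 values, each under 2-fold as reported, changed sign under scaling or centring. Among them were pfn2 from PA stage 6 to stage 9 (-0.21 by sum, -0.40 by median) and from PA oocyte to stage 6 (1.12 and 1.03), actb and actg1 from PA stage 9 to stage 12, and actg1 in PA/RZ at stage 6 (0.17 centred). A pseudocount of 1 moved none by that much. From PA oocyte to stage 6, members at least 2-fold higher numbered 1 and lower 2 under scaling by either sum or median. From PA stage 9 to stage 12 there were 1 higher by sum, and 3 higher and 0 lower by median. From RZ oocyte to stage 6 there was 1 higher by median. For PA/RZ, 2 were higher in oocyte by sum and after centring. At stage 6, 1 was lower after centring, and at stage 9, 1 was higher and 2 lower by sum. By median, regulators higher and lower were 12 and 7 from PA oocyte to stage 6, 14 and 9 from stage 6 to stage 9, and 36 and 6 from oocyte to stage 30. At a 4-fold threshold the same counts were 0 and 9, 19 and 0, and 12 and 6. At 1.5-fold, 4 were higher from oocyte to stage 6 and 15 lower from oocyte to stage 30. The cause of these shifts was not tested. No paired analysis was possible because there is 1 library per condition, and none could be left out as a replicate. Precision was limited by this and by the unknown reads behind each multi-exon value.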
